A study of Homo sapiens with 18 samples.

Results

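The human bladder cancer line Scaber, established from a squamous tumour, was profiled on 6 Illumina bead arrays. On 3 arrays the cells carried an siRNA against STAT3, and on the other 3 a non-targeting siRNA. These are 6 of the 18 arrays of a study of 3 urothelial cancer lines. UC14 cells in which an shRNA targeted p63, and their controls with a non-targeting shRNA (3 arrays each), are used here for 1 comparison, and UC7 cells with rosiglitazone or without it (3 arrays each) enter only the normalisation and the estimate of spread. All lines grew in MEM with serum. The dose, duration and sequence of the STAT3 siRNA are not given in the sources used here, the labels name neither a second siRNA nor a rescue, and separate cultures are not stated for the 3 arrays of either group. Members were found by the line and siRNA that the labels give, and all 11978 genes measured above background in at least 1 of the 6 groups were compared.

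STAT3 is a latent transcription factor. Cytokines of the IL6 family bind receptor chains that share the subunit IL6ST (gp130), the attached JAK kinases phosphorylate STAT3, and the STAT3 dimer enters the nucleus and binds DNA. SOCS3, itself a STAT3 target, shuts the receptor complex down. STAT3 activity is known from squamous and basal-type bladder tumours, where the genes it drives include acute-phase, survival and differentiation genes.

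Levels below are normalised log2 signals, so a difference of 1 is a 2-fold change. The error printed after a change is its standard error in limma's linear model, with 3 arrays a group. A gene is called where its Benjamini-Hochberg adjusted p over all 11978 genes was under 0.05, and "rose", "fell", "higher" and "lower" refer to the STAT3 siRNA arrays against the non-targeting arrays. Of all genes tested, 3106 (25.9%) were called, 1451 (12.1%) higher and 1655 (13.8%) lower. The 2 groups of arrays did not overlap, in either direction, for 4685 of the 11978 genes, called or not. With arrays scaled to a common median in place of quantile normalisation, 411 were called higher and 1909 lower, so the higher share of the calls was 17.7% and not 46.7%. The median change of all genes was 0.01 in the first case and -0.07 in the second. Only 318 genes (2.65%) were called and changed at least 2-fold, 262 of them lower and 56 higher, and 113 did so with no background correction.

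Arrays of a group correlated at 0.9892 to 0.993 and arrays of different groups at 0.9735 to 0.9785. The median raw signal was 110.9 to 115.8 on the non-targeting arrays and 96.3 to 110.6 on the STAT3 siRNA arrays. Between 17293 and 18021 probes were detected on the former and 16473 to 16760 on the latter, and the part of this difference in the results was not tested. All 10 epithelial identity markers were measured, and their summed signal was 10503 to 11177 on the non-targeting arrays and 12893 to 13155 on the siRNA arrays. Of 10 stromal markers 4 were tested, with sums of 3006 to 3808 and 2521 to 2970, and of 12 immune and endothelial markers 4 were tested, with sums of 3021 to 3089 and 1984 to 2112. Scaber is a cultured line, so these sums are no count of stromal, immune or endothelial cells. In a bulk sample, fewer cells expressing a marker and less RNA per cell cannot be told apart.

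STAT3 mRNA was at 9.89, 9.93 and 9.89 on the non-targeting arrays and at 6.42, 6.84 and 6.65 on the siRNA arrays. The groups were far apart on all 3 of its probes, which differed by -2.77 to -3.30. The change was -3.26 ± 0.11 (adjusted p = 4.93e-12).

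The ligands of the pathway were mostly out of range of the arrays, with 5 of 14 listed genes tested. IL6, the cytokine that names the family, was at 9.53, 9.36 and 9.83 in controls and at 11.11, 10.56 and 10.87 under STAT3 siRNA, with no overlap, and rose by 1.27 ± 0.18 (adjusted p = 5.16e-05). IL24, a cytokine of the IL10 family that signals through STAT3, was at 6.75, 7.43 and 7.67 in controls and at 6.29, 6.14 and 6.36 after knockdown. It changed by -1.02 ± 0.17 (adjusted p = 0.000342). LIF (-0.29), IL11 (-0.21) and IL10 (-0.28) did not pass.

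Of 24 listed cytokine receptor genes 19 were tested, and 7 fell while 0 rose. OSMR, the receptor chain for oncostatin M, was at 9.07, 9.21 and 9.01 in controls and at 7.96, 8.14 and 7.84 under STAT3 siRNA, and so fell by more than the spread in either group (-1.11 ± 0.10, adjusted p = 6.87e-07). IL6ST, the shared signalling subunit, was at 10.08, 9.99 and 10.37 against 9.61, 9.37 and 9.53 (-0.64 ± 0.12, adjusted p = 0.000886). LIFR, the receptor chain for LIF, was called at -0.83 ± 0.22, but its highest siRNA array (6.02) lay above its lowest control (5.80) and it was detected on 1 siRNA array. Its call was lost when control replicate 3 (-0.66) or siRNA replicate 2 (-0.63) was left out. The interferon receptor chains IFNAR1 (-0.59) and IFNGR1 (-0.57) and the IL4 and IL13 receptor chains IL4R (-0.56) and IL13RA1 (-0.43) fell less, and IL6R, which binds IL6 itself, was detected on 0 of the 6 arrays. The median of the 19 genes was -0.22, against 0.01 for all genes.

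Among 26 tested JAK kinases, STATs and their regulators, 5 fell and 3 rose. The falls include STAT3 itself, the target of the siRNA. In all 30.8% of the list was called, against 25.9% of all genes. SOCS3 was at 6.63, 6.92 and 6.76 in controls and at 5.49, 5.72 and 5.45 after knockdown, with the groups well apart (-1.22 ± 0.15, adjusted p = 1.87e-05). Smaller falls were called for PIAS2, a SUMO ligase that binds STATs (-0.53, on 2 of 3 probes), STAM, an endosomal sorting adaptor (-0.39), and STAT5A (-0.38). The tyrosine phosphatases PTPN2 (0.48), PTPN1 (0.42) and PTPN6 (0.37, on 1 of 2 probes), which dephosphorylate JAKs and STATs, made up the rises. The calls of 4 of these genes depended on single arrays. STAM lost its call without non-targeting replicate 1 or 3 or siRNA replicate 2 (-0.36, -0.35 and -0.32) and STAT5A without non-targeting replicate 1 or 2 or siRNA replicate 3 (-0.29, -0.36 and -0.29). PTPN2 lost it without non-targeting replicate 2 or siRNA replicate 1 (0.37 and 0.42), and PTPN6 without either of these or siRNA replicate 2 (0.28, 0.33 and 0.37). The list had 3 genes lower without non-targeting replicate 1, 1 higher without non-targeting replicate 2 or siRNA replicate 1, and 0 higher with median scaling. The kinases JAK1 (0.00) and TYK2 (-0.12) and the factors STAT5B (0.16) and STAT6 (0.02) did not pass. JAK1 was at 8.61 to 8.72 in controls and at 8.47 to 8.81 under STAT3 siRNA, so its groups overlapped.

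**Figure D1:**
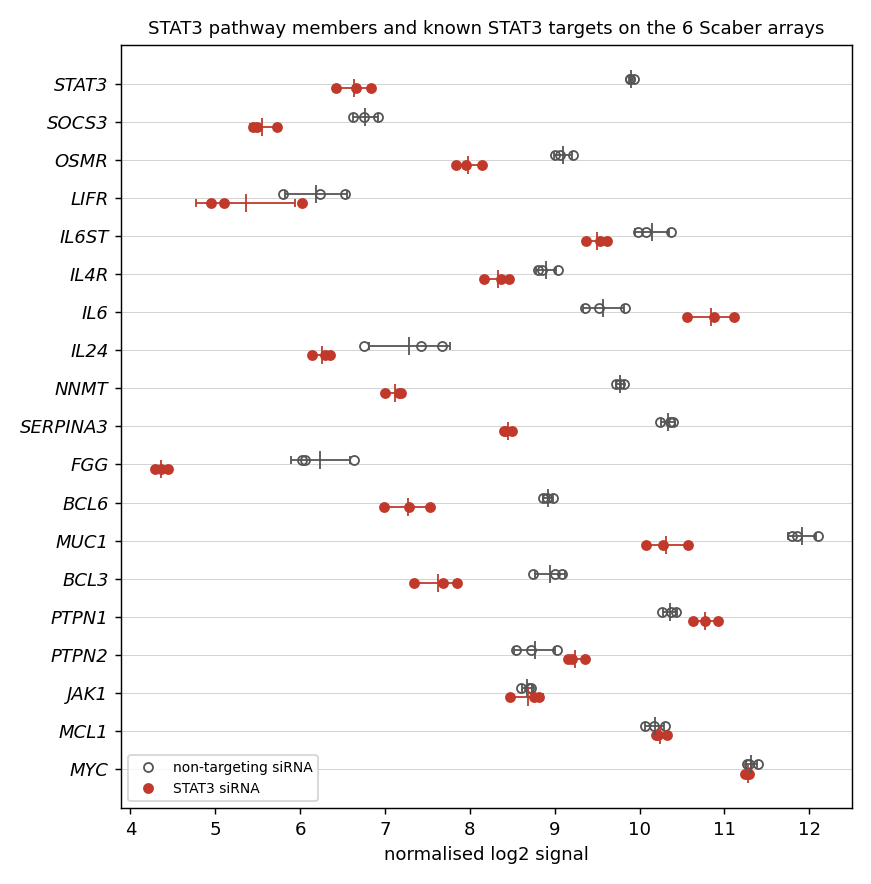
Normalised log2 signal (x axis) of 19 pathway members and known STAT3 targets on the 3 non-targeting arrays (open circles) and the 3 STAT3 siRNA arrays (filled circles) of Scaber; vertical ticks are group means and bars are SDs. STAT3 lies at 9.89 to 9.93 and at 6.42 to 6.84, NNMT, SERPINA3, BCL6 and MUC1 are also separated widely, IL6 is displaced the other way, and JAK1, MCL1 and MYC overlap.

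Of 43 genes listed as known STAT3 targets 38 were tested, 15 fell and 0 rose, with a median of -0.22. With an array left out 13 to 16 fell and 0 to 1 rose. With no background correction 18 fell and 1 rose. The largest falls were in genes of metabolism and the acute phase. NNMT, which methylates nicotinamide, was at 9.82, 9.77 and 9.72 in controls and at 7.002, 7.19 and 7.16 after knockdown, and none of the siRNA arrays came near a control (-2.65 ± 0.08, adjusted p = 2.90e-12). SERPINA3, an acute-phase protease inhibitor, was at 10.24, 10.39 and 10.36 against 8.50, 8.41 and 8.43 (-1.88 ± 0.12). FGG, a fibrinogen chain, lost detection on all 3 siRNA arrays, having been detected on all 3 controls, and was at least 1.80-fold lower. The protease inhibitor A2M (-0.70) fell less, and SAA1 (0.17) did not pass.

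The transcriptional regulators among the targets also fell. BCL6, a zinc-finger repressor, was at 8.91, 8.98 and 8.87 in controls and at 7.53, 6.99 and 7.29 under STAT3 siRNA (-1.65 ± 0.11, adjusted p = 1.88e-08). BCL3, a nuclear partner of NF-kB, was at 8.999, 9.09 and 8.74 against 7.35, 7.84 and 7.68 (-1.32 ± 0.16). FOS, an AP-1 subunit, changed by -0.84, SBNO2 by -0.66 and CEBPD, an acute-phase factor, by -0.60. Each of these regulators was lower on all 3 siRNA arrays than on any control array. Such a separation, in either direction, was shown by 4685 of all 11978 genes. The mucin MUC1 was at 11.86, 12.11 and 11.79 against 10.08, 10.57 and 10.27 (-1.61 ± 0.16). Several well known survival and growth targets did not pass: MYC was at -0.04, MCL1 at 0.06, PIM1 at -0.14, BCL2L1 at 0.23 and CCND1 at 0.38 (adjusted p = 0.0549). MYC was at 11.27 to 11.39 in controls and at 11.25 to 11.29 after knockdown. Survivin, BIRC5, was called at -0.31 on 1 of its 2 probes, and not without non-targeting replicate 1 or 2 or siRNA replicate 2 (-0.25, -0.28 and -0.26).

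Promoter sequences from RefSeq (GRCh38.p14) were set beside these changes. Each spans 250 bases before and 50 after the first annotated start of a gene, and 9646 tested genes had one. The palindrome TTCNNNGAA, to which STAT dimers bind, was searched on both strands. It was present in 7.88% of all 27305 promoters, in 6.25% of those of tested genes, in 6.43% of those called lower, in 7.30% of those called higher and in 6.04% of those not called. Among genes at least 2-fold lower the share was 18 of 211 (8.53%). Of 25 tested STAT3 targets with a promoter 3 held it, BCL6, MUC4 and ICAM1, and 1 of these was called lower. BCL6 is shown because it had 4 matches, a number reached or passed by 6 of 27305 promoters, and NOTCH3 because it is the largest fall in the Notch pathway and has 1 match just after its start. Both lie on the minus strand and are written 5′ to 3′ along the gene, with matches in capitals.
BCL6, chr3:187745419-187745718: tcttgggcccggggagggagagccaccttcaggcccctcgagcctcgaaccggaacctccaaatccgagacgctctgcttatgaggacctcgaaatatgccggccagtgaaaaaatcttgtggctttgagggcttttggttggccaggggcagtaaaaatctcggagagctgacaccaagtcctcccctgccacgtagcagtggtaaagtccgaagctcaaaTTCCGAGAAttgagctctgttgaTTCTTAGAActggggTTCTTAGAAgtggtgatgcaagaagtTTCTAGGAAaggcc
NOTCH3, chr19:15200946-15201245: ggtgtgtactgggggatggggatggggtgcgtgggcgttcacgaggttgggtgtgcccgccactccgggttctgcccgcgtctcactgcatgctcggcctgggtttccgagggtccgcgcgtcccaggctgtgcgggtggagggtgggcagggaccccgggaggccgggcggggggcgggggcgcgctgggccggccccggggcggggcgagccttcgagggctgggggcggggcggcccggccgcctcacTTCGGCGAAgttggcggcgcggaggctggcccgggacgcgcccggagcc
In BCL6 the matches began at positions -28, -5, 10 and 36, where 0 is the annotated start, and in NOTCH3 at position 1. A match is a description of the letters and not a measured binding site.

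The 15 largest falls and 15 largest rises, among genes whose groups did not overlap and which were detected on all 3 arrays of the brighter group, held several functions. H19, an imprinted non-coding RNA, was at 9.30, 9.42 and 9.04 in controls and at 4.94, 5.27 and 5.46 under STAT3 siRNA (-4.03 ± 0.13, adjusted p = 4.21e-12), with 1 siRNA array detected. SERPINB4, an epithelial serine protease inhibitor, was at 9.10, 9.10 and 9.57 against 5.96, 5.84 and 5.83 (-3.38 ± 0.11). CLCA2, a membrane protein of stratified epithelia, was at 8.42, 8.77 and 8.49 against 5.29, 5.49 and 5.57 (-3.11 ± 0.10). After knockdown CLCA2 was detected on 2 arrays and SERPINB4 on all 3.

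SLCO2A1, the prostaglandin transporter, was at 8.93, 9.23 and 9.10 in controls and at 6.13, 6.57 and 6.10 after knockdown (-2.82 ± 0.13). GNLY, the antimicrobial protein granulysin known from cytotoxic lymphocytes, was at 8.68, 8.74 and 8.996 against 6.25, 6.07 and 6.12 (-2.66 ± 0.11) and was detected on all 6 arrays, with the same call on its 2 probes. SOX18, a transcription factor known from blood and lymph vessels, was detected on 3 control and 0 siRNA arrays and was at least 3.76-fold lower. CA12, a membrane carbonic anhydrase, changed by -2.49 ± 0.18, KIFAP3, an adaptor of the kinesin-2 motor, by -2.34 ± 0.20, SLFN11, which sensitises cells to DNA damage, by -2.28 ± 0.12, and CBFB, the partner subunit of the RUNX factors, by -2.24 ± 0.10. NOTCH3 was at 9.11, 9.10 and 8.95 against 6.58, 6.83 and 6.83 (-2.31 ± 0.12), and the fibroblast growth factor receptor FGFR3 was at 8.76, 8.96 and 8.64 against 6.29, 6.82 and 6.35 (-2.30 ± 0.13). Control and siRNA arrays of each of these genes formed 2 separate sets, as the selection required.

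The rises were smaller. CPA4, a secreted carboxypeptidase, was at 6.88, 7.09 and 6.97 in controls and at 9.65, 9.50 and 9.61 under STAT3 siRNA (2.61 ± 0.17, adjusted p = 1.36e-08). ADAMTS1, a matrix metalloprotease, was at 5.87, 5.85 and 5.96 against 7.97, 7.95 and 8.13 (2.12 ± 0.10), and the small heat shock protein HSPB8 was at 7.42, 7.35 and 7.18 against 9.32, 9.40 and 9.38 (2.05 ± 0.13). These 3 genes were higher on every siRNA array by far more than the spread in either group. The pseudogene transcript SFTA1P (2.05 ± 0.17), the secreted folate-binding protein FOLR3 (2.04 ± 0.13), the cornified envelope precursor SCEL (1.86 ± 0.21), the junction protein CGNL1 (1.81 ± 0.11), the cysteine-forming enzyme CTH (1.75 ± 0.27), the aquaporin AQP11 (1.43 ± 0.13) and the lipid receptor S1PR1 (1.38 ± 0.22) followed. HDAC9, a class II histone deacetylase, was detected on 0 control and 3 siRNA arrays and was at least 2.77-fold higher, on 2 of its 3 probes. All 30 of these genes stayed called in the same direction under every alternative processing tried.

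**Figure D2:**
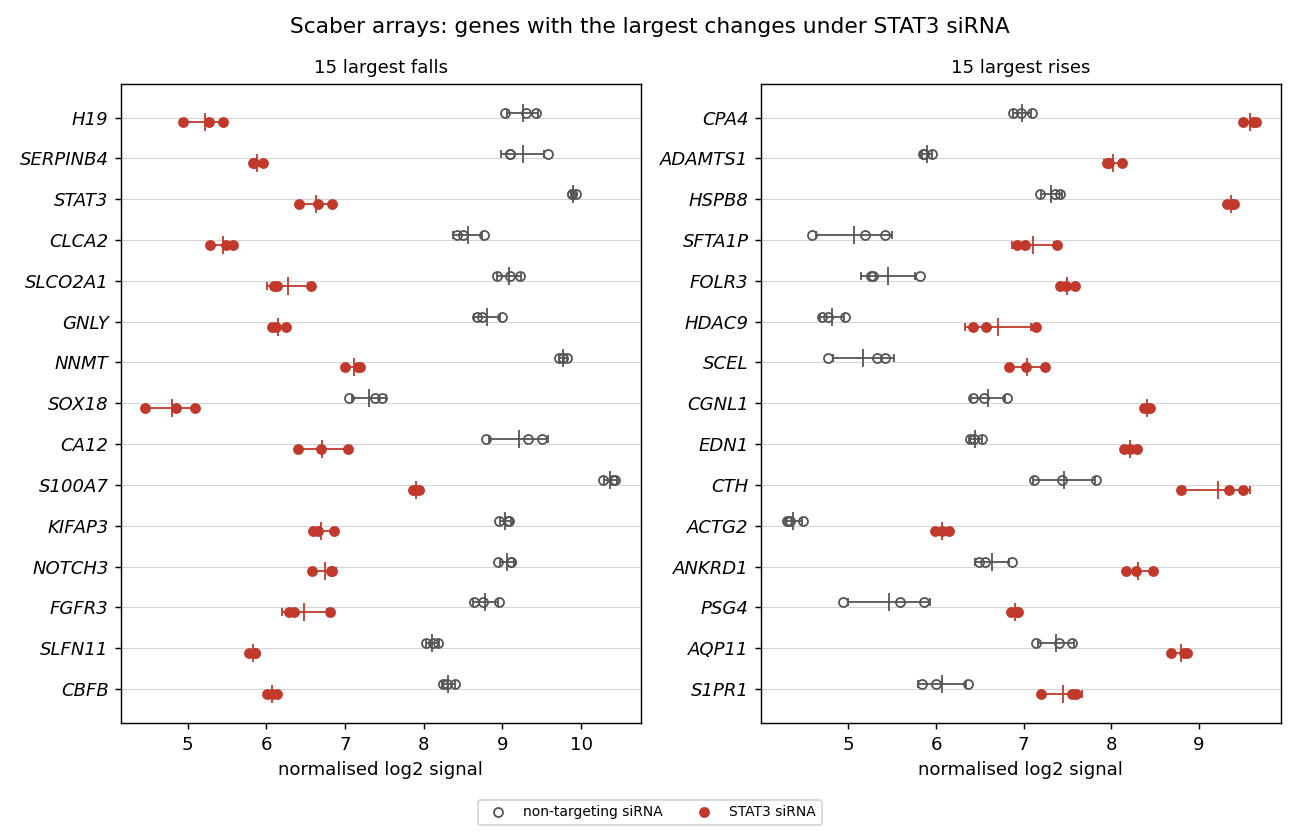
Normalised log2 signal (x axis) of the 15 genes that fell most (left) and the 15 that rose most (right) on the 3 non-targeting arrays (open circles) and the 3 STAT3 siRNA arrays (filled circles), with group means (ticks) and SDs (bars). The falls reach -4.03 (H19) and the rises 2.61 (CPA4). By the selection, no siRNA array of a gene crosses a control array.

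The cell cycle genes gave the broadest fall. Of 84 listed mitosis genes 81 were tested: 75 fell, 0 rose, all 81 had changes below 0, and the median was -0.75. The called members had a median of -0.76, and the change reached -1.25 for LIN9, a subunit of the DREAM complex that regulates cell cycle genes. NUF2, a kinetochore protein, fell by 1.20, PLK4, the kinase of centriole duplication, by 1.16, the kinase PBK by 1.11, and the motor KIF15 and the kinetochore protein CENPF by 1.10 and 1.07. CDK1, the mitotic kinase, fell by 1.04 ± 0.11. TOP2A, which untangles sister chromatids, fell by 1.07 ± 0.10. By symbol, 13 of 20 tested centromere proteins were lower and 2 higher, and 12 of 27 kinesins were lower and 1 higher. With an array left out 1 to 2 centromere proteins and 0 to 2 kinesins were higher, and 0 of either with median scaling. The proliferation marker MKI67, at 4.97 to 5.00 in controls and 4.86 to 5.11 after knockdown, was detected on 0 control and 0 siRNA arrays. Of the 75 called members, 10 fell at least 2-fold, so most of the changes were small.

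Replication genes showed the same direction. Of 56 listed genes of origin licensing and the fork 55 were tested, 39 fell and 0 rose, with a median of -0.68. UHRF1, which recruits maintenance DNA methylation to replicated DNA, was at 10.05, 10.00 and 9.91 in controls and at 7.96, 8.21 and 8.15 under STAT3 siRNA, and had the largest change of the list (-1.88 ± 0.09, adjusted p = 4.24e-10). All 6 subunits of the MCM2 to MCM7 helicase fell, with MCM2 at 9.35, 9.19 and 9.14 against 8.09, 8.04 and 8.10 (-1.15 ± 0.13). Its activators CDC45 (-1.36) and CDC7 (-1.28, detected on 1 siRNA array), the fork protein MCM10 (-1.27, on 1 of 2 probes), the licensing factor CDT1 (-1.12) and its inhibitor GMNN (-1.02) fell as well. Of the other complexes, 4 of 5 clamp loader subunits and 2 of 3 tested GINS subunits fell (1 to 2 of the latter with an array left out), while 0 of 6 origin recognition subunits were called in either direction. The origin recognition genes had a median of -0.09, against -0.88 for the helicase.

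Of 29 tested nucleotide synthesis genes 8 fell and 2 rose, with a median of -0.06. The number lower was 5 without STAT3 siRNA replicate 3, and the number higher was 1 without non-targeting replicate 2 or 3, 0 without STAT3 siRNA replicate 1 and 0 with median scaling. The 3 largest falls were in thymidine nucleotide supply. DUT, which keeps uracil out of DNA, was at 8.42, 8.25 and 8.11 against 6.35, 6.53 and 6.52 (-1.80 ± 0.11, adjusted p = 7.37e-09), thymidine kinase TK1 was at 9.43, 9.25 and 9.31 against 8.11, 8.04 and 7.86 (-1.32 ± 0.10), and thymidylate synthase TYMS changed by -1.17 ± 0.14. Purine genes such as GART (0.10), PPAT (0.09) and PAICS (-0.06) did not pass. Of 35 tested repair and recombination genes 18 fell and 0 rose, with a median of -0.45, among them the glycosylase NEIL3 (-1.14), the checkpoint kinase CHEK2 (-0.99), FANCI (-0.87), BRCA1 (-0.85) and the mismatch factor MSH6 (-0.82).

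The regulators of G1 did not move as a block. Of 34 tested, 8 fell and 4 rose, with a median of -0.04. CDK6, a G1 kinase, was at 10.87, 10.89 and 10.91 in controls and at 9.45, 9.48 and 9.47 after knockdown (-1.43 ± 0.11, adjusted p = 1.33e-07). RB1, the retinoblastoma protein that CDK6 phosphorylates, was at 7.44, 7.53 and 7.20 against 6.43, 6.48 and 6.06 (-1.07 ± 0.12). The MYC antagonist MXD1 (-1.38), the repressor E2F7 (-1.10), the activator E2F2 (-0.98) and CDK2 (-0.74) fell, and CCNE1, called on 1 of 2 probes, was detected on 3 control and 0 siRNA arrays and was at least 1.43-fold lower. Of the 4 rises E2F5 had the largest (0.47), and 1 member was called higher without non-targeting replicate 3 or without STAT3 siRNA replicate 2, and 0 with median scaling. E2F1 (0.41), the inhibitor CDKN1A (0.15) and CCND1 (0.38) did not pass.

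Promoters of the fallen cell cycle genes were searched for letters known from such genes. The CHR element TTTGAA, bound by the DREAM complex, was present on either strand in 43 of 62 promoters of mitosis genes called lower (69.4%), in 15.4% of all promoters and in 10.0% of those of tested genes. CCAAT was present in 42 of 62 (67.7%) and in 35.7% of all promoters. The E2F letters TTTCGCGC, TTTGGCGC or TTTCCCGC were present in 16 of 33 promoters of replication genes called lower (48.5%) and in 2.79% of all. These lists were drawn from genes known to be controlled in the cell cycle, and so the shares describe the lists and not the response. TOP2A (minus strand) is shown for its 2 CHR matches and UHRF1 (plus strand) for its E2F match, both written 5′ to 3′ along the gene with matches in capitals.
TOP2A, chr17:40417847-40418146: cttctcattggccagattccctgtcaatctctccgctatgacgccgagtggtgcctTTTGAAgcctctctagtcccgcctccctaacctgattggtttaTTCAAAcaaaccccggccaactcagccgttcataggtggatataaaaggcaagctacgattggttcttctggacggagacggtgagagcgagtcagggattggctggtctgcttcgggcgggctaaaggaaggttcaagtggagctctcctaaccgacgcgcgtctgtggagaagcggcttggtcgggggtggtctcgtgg
UHRF1, chr19:4909251-4909550: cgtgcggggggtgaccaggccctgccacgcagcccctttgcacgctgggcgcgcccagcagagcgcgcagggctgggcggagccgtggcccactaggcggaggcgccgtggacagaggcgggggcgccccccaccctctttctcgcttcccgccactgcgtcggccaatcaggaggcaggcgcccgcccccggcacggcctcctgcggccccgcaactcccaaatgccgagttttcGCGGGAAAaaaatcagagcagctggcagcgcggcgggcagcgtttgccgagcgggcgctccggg
The matches began at positions -194 and -151 in TOP2A and at -14 in UHRF1.

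**Figure D3:**
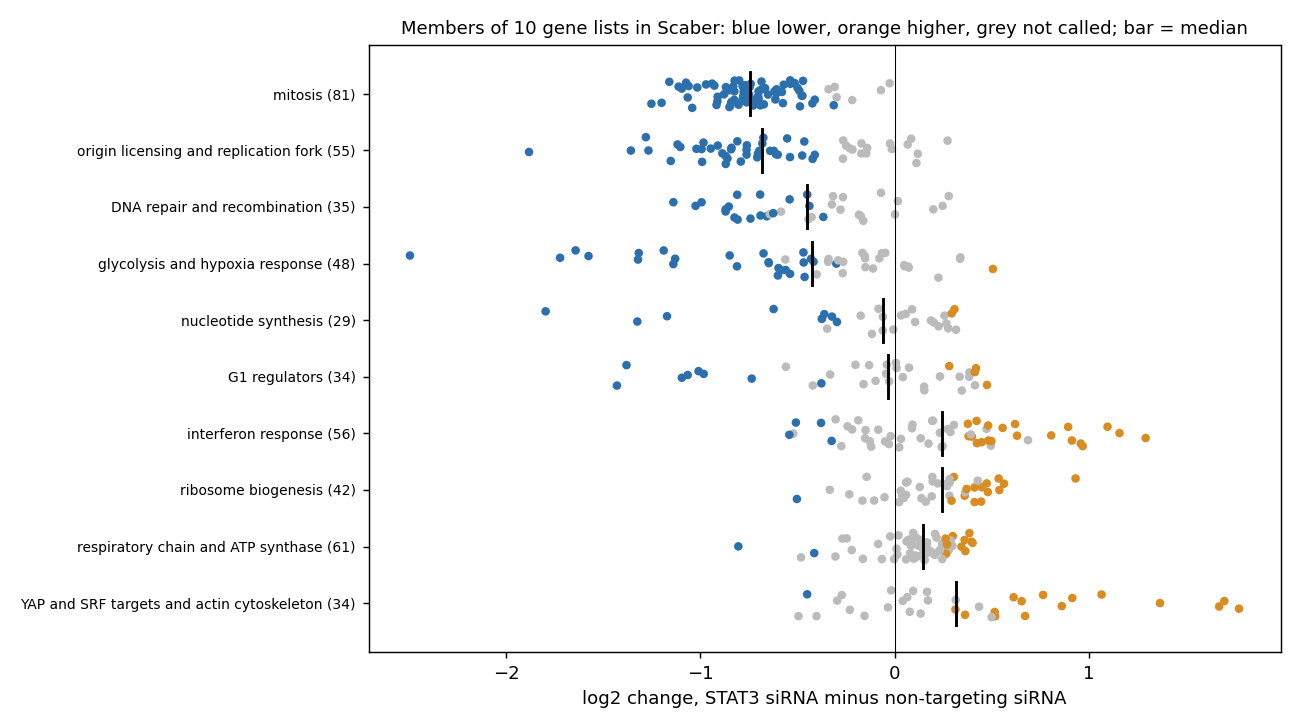
Log2 change under STAT3 siRNA (x axis) of every tested member of 10 gene lists, with the number of members in parentheses; blue points were called lower, orange points higher and grey points were not called, and black bars are medians; height within a list carries no value. Mitosis (median -0.75) and replication (-0.68) lie almost wholly below 0, and interferon response (0.24) and YAP and SRF targets (0.31) lie mostly above it.

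Genes of glycolysis and the hypoxia response fell widely: 25 of 48 tested fell, 1 rose, and the median was -0.42 (2 higher without non-targeting replicate 2 and 0 with median scaling). Beside CA12, named above, ENO2, a neuronal-type enolase, fell by 1.64 ± 0.17, and BNIP3, a mitophagy receptor, was at 12.46, 12.38 and 12.49 in controls and at 10.999, 10.86 and 10.74 after knockdown (-1.58 ± 0.10, adjusted p = 9.71e-09). ANGPTL4, a lipoprotein lipase inhibitor, was called at -1.72 on 1 of 2 probes. The oxygen sensor EGLN3 was detected on 3 control and 0 siRNA arrays, and the regulator of glycolytic flux PFKFB4 changed by -1.32. Of the enzymes of glycolysis itself, TPI1 (-0.81), PGK1 (-0.60), LDHA (-0.43) and ENO1 (-0.42) fell, and GAPDH (-0.15), PKM (-0.07) and ALDOA (0.05) did not pass. Collagen-modifying enzymes that hypoxia induces, PLOD2 (-1.19), P4HA1 (-1.14) and LOX (-1.13), also fell. HIF1A, the oxygen-regulated factor, was at -0.34 and did not pass (adjusted p = 0.0882).

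Of 28 tested genes of the cornified envelope and squamous differentiation 7 fell and 2 rose, with a median of -0.03. The number higher was 1 without control replicate 3 or siRNA replicate 2 or 3, and 1 with median scaling. Besides CLCA2, the protease inhibitor PI3 (elafin) was at 9.10, 8.90 and 9.21 in controls and at 7.24, 7.15 and 7.10 after knockdown (-1.90 ± 0.10), and the crosslinking enzyme TGM1 changed by -1.94 ± 0.23. Among desmosome parts DSC3 (-1.20), PKP1 (-0.69) and DSC2 (-0.56) fell, while DSG2 (0.19) and PKP3 (-0.01) did not pass. SCEL, named above, was the larger of the rises, and SPRR1B (0.24) and EVPL (0.16) did not pass.

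Basal and squamous keratins fell in 5 of 10 tested (21 listed), and 0 rose. KRT14, a keratin of basal cells, was at 10.44, 10.64 and 10.46 against 8.98, 9.19 and 8.91 (-1.48 ± 0.17), and KRT15 (-0.97), KRT16 (-0.90) and KRT13 (-0.68) fell. KRT5, the usual partner of KRT14, was at 10.86 to 10.98 in controls and 11.14 to 11.25 under STAT3 siRNA, and at 0.25 did not pass. Of 25 simple keratins and luminal markers 5 fell and 1 rose (2 without STAT3 siRNA replicate 1). In all 24% of this list was called, near the 25.9% of all genes. After FGFR3 the larger falls were those of KRT19 (-0.91) and the epithelial factors ELF3 (-0.70) and KLF5 (-0.58). TRIM31 rose by 0.51. The luminal regulators PPARG (-0.01) and FOXA1 (0.26) and the keratins KRT8 (0.06) and KRT18 (0.37) did not pass.

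Of 16 tested S100 calcium-binding proteins 7 fell and 0 rose. S100A7 (psoriasin) was at 10.27, 10.41 and 10.43 in controls and at 7.86, 7.91 and 7.93 after knockdown (-2.47 ± 0.10, adjusted p = 7.51e-11). The calprotectin subunit S100A8 was at 11.62, 11.61 and 11.65 against 9.98, 9.79 and 9.67 (-1.82 ± 0.11), and its partner S100A9 at 12.88, 12.85 and 12.81 against 11.72, 11.72 and 11.60 (-1.16 ± 0.11). These alarmins of inflamed epithelium differed between the groups by many times the spread within them. S100A3 (-0.97) and S100P (-0.70) fell less, and S100A4 (0.19), S100A6 (0.02), S100A10 (-0.07) and S100A11 (0.09) did not pass. S100A7A was detected on 3 control and 0 siRNA arrays. It is a close paralog of S100A7, as SERPINB3 is of SERPINB4, and probes of such pairs may read both transcripts.

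Among clade B serpins 4 of 7 tested fell and 0 rose. With median scaling or no background correction 1 was called higher, and with an array left out 3 to 4 were lower. SERPINB3 was at 11.18, 11.26 and 11.25 against 9.04, 9.06 and 8.999 (-2.20 ± 0.14, on both probes), SERPINB1, an inhibitor of neutrophil proteases, changed by -0.99, whereas SERPINB5 (maspin, 0.20) and SERPINB7 (0.63) did not pass. Of 28 tested genes of mucosal defence and the cell surface 8 fell and 2 rose. The antiprotease SLPI fell by 1.44 ± 0.14, WFDC2 by 1.06 ± 0.10, and the complement genes C1S, CFB and C1R by 1.30 ± 0.17, 1.20 ± 0.16 and 0.91 ± 0.20. Complement C3 was called in the other direction (0.35), as was LYPD3, a surface protein of squamous epithelium (0.51), and 1 member was called higher without control replicate 1 or siRNA replicate 2, and 0 with median scaling. LCN2 (0.15) did not pass.

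**Figure D4:**
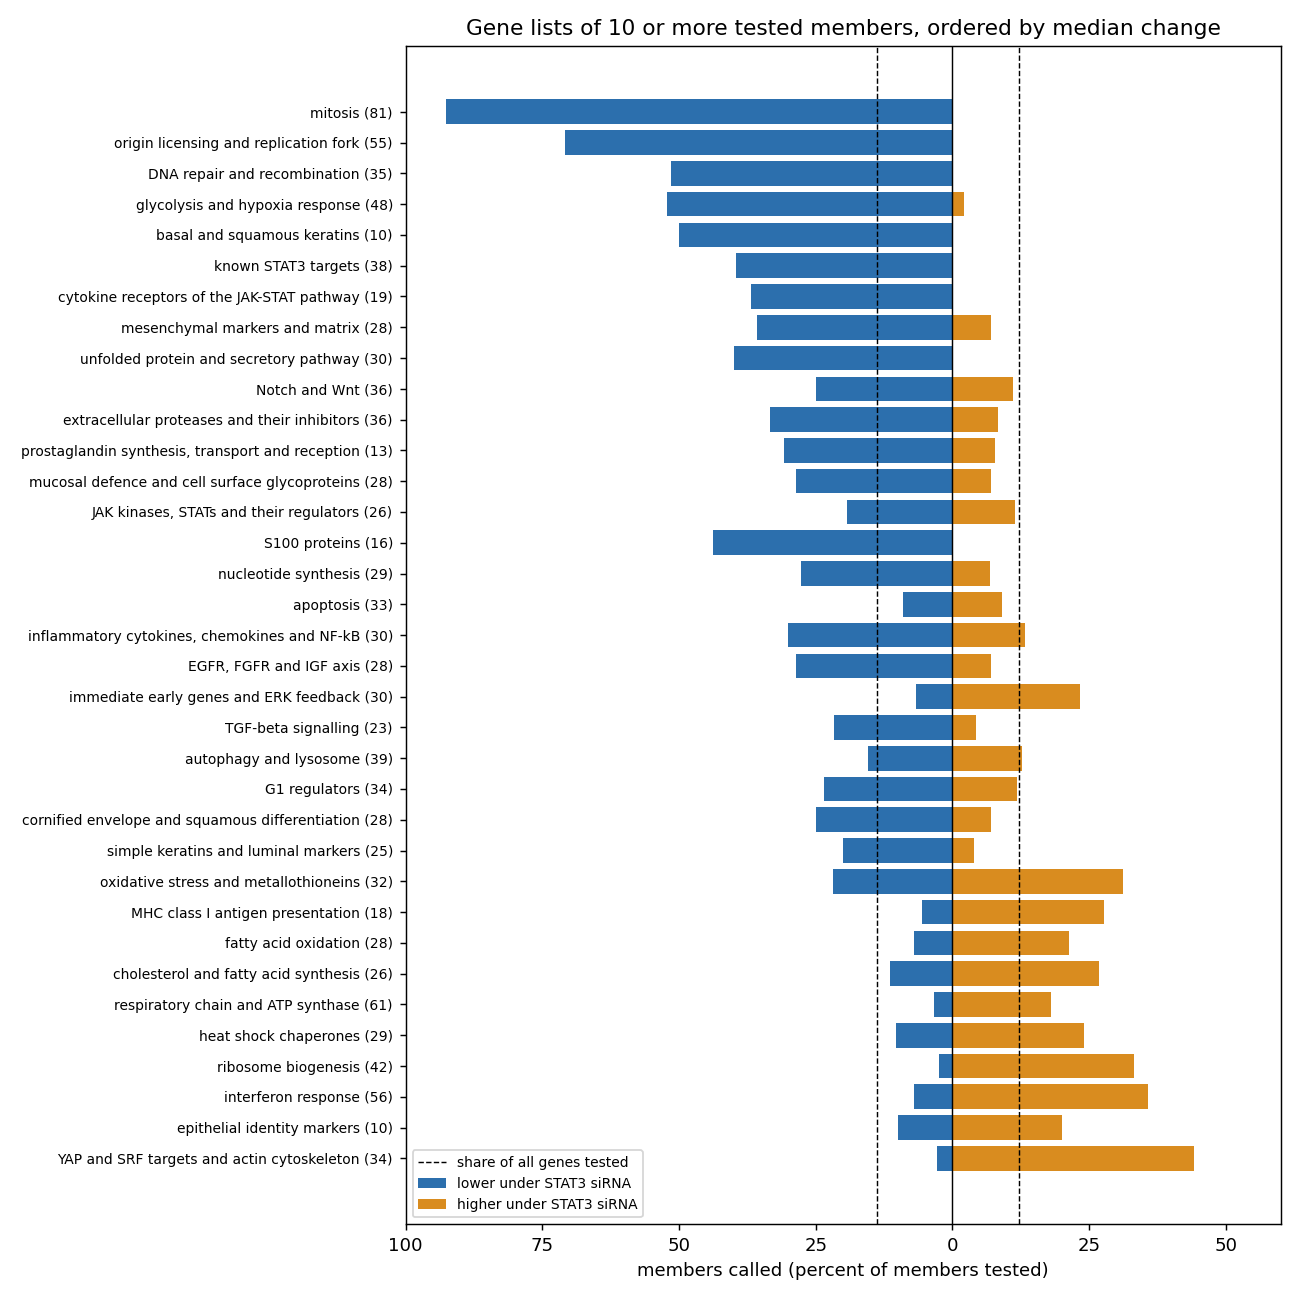
Percent of tested members called lower (blue, to the left) and higher (orange, to the right) under STAT3 siRNA in each list with 10 or more tested members, in the order of the lists' median changes, with the number tested in parentheses. Dashed lines mark the shares of all genes, 13.8% lower and 12.1% higher. Among these lists mitosis, replication, DNA repair and hypoxia genes reach farthest to the left. YAP and SRF targets, interferon and ribosome biogenesis genes reach farthest to the right. Many other lists also pass a line.

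Interferon response genes moved the other way. Of 60 listed 56 were tested, 20 rose and 4 fell, with a median of 0.24 (11 higher and 5 lower, median 0.12, with median scaling). With an array left out 14 to 19 rose. OAS1, which makes the activator of the antiviral ribonuclease, was at 7.67, 7.75 and 7.52 in controls and at 8.99, 8.90 and 8.91 under STAT3 siRNA (1.29 ± 0.12, adjusted p = 1.19e-06). EPSTI1 (1.16 ± 0.11), IFI44L (1.09 ± 0.13, on 1 of 2 probes), MX1 (0.97 ± 0.25), the chemokine CXCL10 (0.96 ± 0.14), SP110 (0.91 ± 0.12) and IRF9, the DNA-binding subunit of the interferon-activated complex (0.81 ± 0.09), also rose. OASL (-0.54, on 1 of 2 probes), the membrane proteins IFITM1 (-0.51) and IFITM2 (-0.32) and HERC6 (-0.38) fell. ISG15 (0.19), RSAD2 (-0.15), IFIT3 (0.24) and IFI27 (0.47), genes usually induced strongly by interferon, did not pass. The receptor chains IFNAR1 and IFNGR1 were lower, as given above.

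The interferon-stimulated element GAAANNGAA was present on either strand in 30 of 45 promoters of tested interferon genes (66.7%), in 10 of 18 of those called higher (55.6%), and in 8.29% of all promoters. This list was drawn from genes known to respond to interferon, and so the shares describe the list and not the response to STAT3 siRNA. EPSTI1 is shown because it had the largest rise among the interferon genes with a match. It lies on the minus strand and is written 5′ to 3′ along the gene with the match in capitals.
EPSTI1, chr13:42992192-42992491: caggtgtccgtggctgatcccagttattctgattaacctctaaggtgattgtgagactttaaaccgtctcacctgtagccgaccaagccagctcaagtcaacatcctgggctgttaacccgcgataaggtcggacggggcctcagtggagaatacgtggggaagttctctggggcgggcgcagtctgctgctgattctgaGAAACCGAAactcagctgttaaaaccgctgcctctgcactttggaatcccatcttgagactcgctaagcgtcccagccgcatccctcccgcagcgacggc
The match began at position -50. OAS1, the largest rise of the list, had none of these letters in its window.

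Of 18 tested genes of MHC class I presentation 5 rose and 1 fell, with a median of 0.04 (1 higher and a median of -0.02 with median scaling, and 3 higher without STAT3 siRNA replicate 3). The proteasome activators PSME2 (0.54) and PSME1 (0.41) were among the rises, and HLA-B (-0.28), HLA-C (0.12) and B2M (0.01) did not pass. For B2M this holds on 1 of its 2 probes, and the other was called. The member that fell was the lectin chaperone CANX, at 8.002, 7.90 and 7.77 against 6.46, 6.78 and 6.71 (-1.24 ± 0.10).

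Inflammatory genes went in both directions. Of 30 tested cytokines, chemokines and NF-kB genes 9 fell and 4 rose, with a median of -0.05 (2 higher without non-targeting replicate 1). The IL1 receptor IL1R1 was detected on 3 control and 0 siRNA arrays. The neutrophil chemokine CXCL8 was at 10.60, 10.87 and 10.87 in controls and at 9.80, 9.69 and 9.73 after knockdown (-1.04 ± 0.10), and CXCL1 (-0.87), CCL20 (-0.65) and NFKB1 (-0.53) fell. IL1B was at 10.31, 10.09 and 10.54 against 11.08, 11.03 and 10.95 and rose (0.71 ± 0.12, adjusted p = 0.000354), as did the NF-kB inhibitor TNFAIP3 (0.72 ± 0.16). IL1A (0.09), CXCL2 (0.29) and NFKBIA (-0.15) did not pass. CD14 (-1.13 ± 0.28) and CSF1R (-0.61), known as myeloid markers, were lower too in this cultured line, and their part in these results was not tested.

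In prostaglandin metabolism 4 of 13 tested genes fell and 1 rose, and 0 were higher without non-targeting replicate 3, without STAT3 siRNA replicate 2 or 3, or with median scaling. Beside the transporter SLCO2A1, the inducible cyclooxygenase PTGS2 was at 7.92, 8.09 and 8.13 in controls and at 6.49, 6.59 and 6.92 after knockdown (-1.38 ± 0.18), and the constitutive enzyme PTGS1 changed by -0.84 ± 0.12. PTGES (0.22) and PTGER4 (0.04) did not pass.

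Targets of YAP and SRF and genes of the actin cytoskeleton had the highest median among the lists, 0.31 (0.19 with median scaling). Of 34 tested 15 rose and 1 fell (10 and 3 with median scaling, and 2 lower without control replicate 1 or siRNA replicate 1 or 3). With an array left out 11 to 12 rose. EDN1, the vasoconstrictor endothelin, was at 6.53, 6.43 and 6.38 in controls and at 8.22, 8.29 and 8.15 under STAT3 siRNA (1.77 ± 0.17, adjusted p = 1.14e-06). ANKRD1 was at 6.56, 6.49 and 6.87 against 8.47, 8.17 and 8.29 (1.67 ± 0.20), and CCN1, a matricellular protein, at 10.37, 10.35 and 10.23 against 11.29, 11.44 and 11.42 (1.06 ± 0.13). CCN2 was called at 0.91 on 1 of 2 probes. The smooth muscle actin genes ACTA2 (0.86 ± 0.11) and ACTG2 (detected on 0 control and 3 siRNA arrays, at least 1.77-fold higher), the actin-binding protein TAGLN (1.36 ± 0.35) and the myosin kinase MYLK (0.76 ± 0.10) rose. The factors themselves, YAP1 (-0.23), WWTR1 (0.50) and SRF (0.13), did not pass, and CNN3 fell by 0.45.

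Of 28 tested matrix and mesenchymal genes 10 fell and 2 rose, with a median of -0.20. The number higher was 1 without control replicate 1 or 3 or siRNA replicate 2 or 3, and 0 with median scaling. COL12A1 (-1.17, on 1 of 2 probes), the repressor ZEB2 (detected on 3 control and 0 siRNA arrays), the integrins ITGAV (-0.86), ITGA6 (-0.72) and ITGA2 (-0.65) and the collagens COL5A1 (-0.76) and COL7A1 (-0.68) fell, and VIM (0.17), FN1 (0.23) and SNAI2 (0.24) did not pass. Of 36 tested extracellular proteases and inhibitors 12 fell and 3 rose. Plasminogen activator PLAT was at 7.14, 6.86 and 6.74 against 5.29, 5.41 and 5.67 (-1.46 ± 0.13), collagenase MMP13 was at 8.78, 8.49 and 9.01 against 7.50, 7.43 and 7.23 (-1.37 ± 0.18), and MMP3 (-1.25 ± 0.32) and MMP7 (-1.08 ± 0.11) fell. With CPA4 and ADAMTS1, the inhibitor TIMP3 rose (0.64 ± 0.12), while the urokinase PLAU (0.11) and its receptor PLAUR (-0.04) did not pass.

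Of 23 tested genes of TGF-beta signalling 5 fell and 1 rose (2 without any 1 of the STAT3 siRNA arrays). In all 26.1% of the list was called, near the 25.9% of all genes. ID2, an inhibitor of basic helix-loop-helix factors, was at 7.89, 8.11 and 8.05 against 7.04, 6.97 and 6.81 (-1.08 ± 0.18), and the ligand BMP2 rose (0.60 ± 0.13). In the EGFR, FGFR and IGF axis 8 of 28 fell and 2 rose (1 with median scaling). H19 and FGFR3 had the largest changes, the EGFR family ligands NRG1 (-1.30, on 1 of 2 probes), TGFA (-0.62) and HBEGF (-0.42) fell, and IGF2, the neighbour of H19 in the imprinted cluster, was detected on 0 of the 6 arrays. In Notch and Wnt signalling 9 of 36 fell and 4 rose, with a median of -0.18 (2 higher with median scaling). Besides NOTCH3 the Wnt receptors FZD4 (-1.18) and FZD7 (-1.11, on 1 of 2 probes) and the Notch ligand JAG1 (-0.60) fell, NOTCH1 (-0.30) did not pass, and the Wnt inhibitor DKK1 (0.78 ± 0.09) rose. Of 30 immediate early and ERK feedback genes 7 rose and 2 fell (4 and 3 with median scaling). The ERK phosphatases DUSP4 (1.13 ± 0.26) and DUSP10 (0.98 ± 0.16) were the largest rises, and EGR1 (-0.18), DUSP6 (-0.19) and SPRY2 (0.07) did not pass.

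In the secretory pathway 12 of 30 tested unfolded protein genes fell and 0 rose, with a median of -0.20. With an array left out 8 to 11 fell and 0 to 1 rose. CRELD2, an ER stress-induced protein, was at 10.59, 10.65 and 10.36 in controls and at 8.77, 8.95 and 8.85 after knockdown (-1.68 ± 0.10, adjusted p = 7.37e-09), and the translocon subunit SSR1 was at 9.55, 9.35 and 9.77 against 8.45, 8.16 and 8.18 (-1.29 ± 0.11). The degradation factor EDEM1 (-1.19 ± 0.10) and the co-chaperone DNAJB9 (-1.14 ± 0.16) also fell. The most widely used markers of ER stress, HSPA5 (-0.14), DDIT3 (0.34) and ATF4 (-0.03), did not pass. Of 29 cytosolic and mitochondrial chaperones 7 rose and 3 fell (2 and 4 with median scaling), with HSPB8 and the co-chaperone BAG2 (0.73 ± 0.14) above the rest.

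Of 32 tested genes of the oxidative stress response and metallothioneins 10 rose and 7 fell (3 and 8 with median scaling). The number lower was 3 without non-targeting replicate 1 and 4 without non-targeting replicate 3, and the number higher 6 without STAT3 siRNA replicate 3. The metal-binding MT1X (-1.61 ± 0.12) and MT1E (-1.22 ± 0.29) fell, glutathione reductase GSR (0.65, on 1 of 2 probes) rose, and the NRF2 targets NQO1 (0.11) and GCLM (-0.01) did not pass. TXNIP, a thioredoxin inhibitor, was called at 1.32 ± 0.36, but at 10.01, 10.72 and 9.41 in controls and 11.24, 12.40 and 10.45 under STAT3 siRNA its groups overlapped. Its call was lost when control replicate 3 (0.997) or siRNA replicate 2 (0.798) was left out.

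Ribosome biogenesis genes rose in 14 of 42 tested and fell in 1, with a median of 0.24 (2 higher with median scaling, median 0.12, and 2 lower without non-targeting replicate 3). The processing factor RRP12 had the largest rise (0.93 ± 0.16), followed by UTP14A (0.56) and NOLC1 (0.54), and RRS1 fell by 0.50. Of 61 tested genes of the respiratory chain and ATP synthase 11 rose, all by 0.26 to 0.40, and 2 fell, UQCRQ (-0.80) and COX8A (-0.41). In all 21.3% of this list was called, against 25.9% of all genes. The number higher was 0 with median scaling, 6 without non-targeting replicate 1, 3 without non-targeting replicate 2 and 3 without STAT3 siRNA replicate 1. Among 28 genes of fatty acid oxidation, 6 were higher and 2 lower, with a median of 0.07 (2 and 2, median -0.06, with median scaling). Of these 28 genes 28.6% were called, near the 25.9% of all genes. The number lower was 0 without STAT3 siRNA replicate 2 and 1 without non-targeting replicate 1 or 3 or siRNA replicate 1. ACAA1 (0.70 ± 0.13) and ETFA (0.59 ± 0.12) led the rises. Of 26 genes of cholesterol and fatty acid synthesis 7 rose and 3 fell, with a median of 0.08 (4 and 4, median -0.06, with median scaling), among them the sterol enzymes SC5D (0.68 ± 0.12) and SQLE (-0.50 ± 0.11).

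Of the tested apoptosis genes 18.2% were called and of the autophagy and lysosome genes 28.2%, against 25.9% of all genes. Of 33 tested apoptosis genes 3 fell and 3 rose (6 and 0 with median scaling). HRK, a BH3-only protein that promotes cell death, was detected on 3 control and 0 siRNA arrays and was at least 1.68-fold lower. Of 39 autophagy and lysosome genes 6 fell and 5 rose (1 higher with median scaling). The number lower was 3 without control replicate 2 or siRNA replicate 1, and the number higher 3 without non-targeting replicate 1 and 2 without control replicate 3 or siRNA replicate 3. The conjugation factors ATG5 (-0.996 ± 0.15) and ATG12 (-0.71 ± 0.09) fell, and the cargo receptor NBR1 (0.75 ± 0.12) rose.

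The changes in Scaber were set against those of p63 shRNA in UC14, which has its own non-targeting arrays. The difference of the 2 log2 changes was called for 5036 genes (42.0%). Of the 11978 genes 3106 were called in Scaber and 5351 in UC14. Of 1614 genes called in both lines 796 changed in the same direction and 818 in opposite directions. Totals this large give many shared genes without any relation, and the overlap was not tested. UHRF1 was at -0.14 in UC14 and differed by -1.74 (adjusted p = 2.71e-08), MCM2 was at 0.16 and differed by -1.32 (adjusted p = 2.99e-05), and STAT3 itself was at -0.18. BCL6 (0.90 in UC14, difference -2.55) and BCL3 (0.82, difference -2.14) rose there, while the YAP and SRF target CCN1 (-1.47, difference 2.53) fell. PTGS2 (-3.48) and CDK6 (-3.51) fell in both lines and more in UC14, with each difference past the threshold, and S100A8 (-1.72) and S100A9 (-1.37) fell in UC14 by amounts whose difference from Scaber did not pass (adjusted p = 0.664 and 0.292). Line, target and type of silencing RNA all differ between these 2 experiments and cannot be told apart.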

How the data were processed

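Total RNA was hybridised to Illumina bead arrays, and 6 Scaber arrays were compared among 18. Per the file headers, the authors deposited non-normalized signal intensities of 47323 probes and a detection p-value for each. They also deposited quantile-normalized log2 values. The submitters' processing notes name limma with no version.

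Intensities were normalised in R 4.3.3 with neqc of limma 3.58.1, which corrected the background by normexp with detection p-values and an offset of 16, quantile normalized the 18 arrays and took log2. The platform annotation named 30113 probes with 1 gene symbol, 8 had several and 17202 were not listed. A probe was kept where the detection p stayed under 0.01 throughout any 1 group (16221 probes), and the brightest probe stood for a gene, which left 11978 genes. Another kept probe existed for 3338 of them.

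Group means were fitted over the 18 arrays by lmFit, with eBayes moderation (residual degrees of freedom 12, prior 4.29). The two-sided p-values were Benjamini-Hochberg adjusted over all genes, with a threshold of 0.05. They measure the spread between arrays that may be technical repeats, and the number of arrays limits the precision. Where all 3 arrays of a group were undetected, a lower bound of the fold is given, set against the higher of the probe's own signal and the lowest signal among detected probes of each array. The difference between the Scaber and UC14 changes was a contrast in the same fit.

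The comparison and the 40 gene lists (1348 genes, 1278 with a named probe, 1125 tested) were chosen with earlier results of these data known. Named genes were STAT3, all detected and called members of the 3 JAK-STAT lists, the 15 largest changes in each direction among called genes with separate groups, up to 6 called members in each direction of the other lists with members a description turns on, and the 5 largest differences from UC14 among genes called with opposite signs in both lines. TOP2A, CDK1, IRF9 and some uncalled genes were added after their values were seen, as were families counted by symbol. The fit was tested on simulated data. Alternatives were no background correction, the authors' log2 values, median scaling, 2 other detection filters, the mean of a gene's probes, the 6 Scaber arrays alone in the fit or in both steps, array weights, a replicate block and leaving out each Scaber array.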

Additional observations from a re-analysis of the deposited data

Results flagged for a closer look

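In 4 genes the changes of the 2 knockdowns were called in both lines with opposite signs and differed most. MEGF6, a secreted protein with EGF-like repeats, changed by -1.37 in Scaber and 4.33 in UC14, where it was detected on 2 of 3 control arrays, a difference of -5.70 (adjusted p = 2.77e-09). MUC1 changed by -1.61 and 3.96, a difference of -5.57 (adjusted p = 1.65e-11). CPA4 changed by 2.61 and -2.63, a difference of 5.24 (adjusted p = 7.87e-11). SLPI changed by -1.44 and 3.43, a difference of -4.87 (adjusted p = 2.79e-11). CYP4F12, which the rule for named genes also gave, was undetected on all 6 Scaber arrays, so no Scaber change or difference is given for it. These genes were selected for their difference, and the cause was not tested.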

How the results depend on the processing

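The count of genes changed at least 2-fold was 318, and it was 113 with no background correction and 120 with the authors' log2 values. Genes higher numbered 1451, and 411 with median scaling. The cause of these shifts was not tested. The totals called and called lower, and the STAT3 change moved by less than 1.5 times under the alternatives tried, as did the number of differences between the lines under those that kept the UC14 arrays. Leaving out each Scaber array in turn gave 2524 to 2741 genes called, 1092 to 1260 higher, 1426 to 1481 lower, 309 to 348 changed at least 2-fold, a STAT3 change of -3.37 to -3.16, and 4634 to 4838 differences called. Same-numbered arrays deviated from their group means with correlations of -0.106, 0.257 and 0.030. Arrays of unlike number reached -0.32 and 0.286, so these values cannot show whether the numbers pair the samples. With the replicate number as a block, 2950 genes and 4920 differences were called and the STAT3 change was -3.26. The 6 Scaber arrays alone in the fit gave 2513 called genes, and array weights 3756. Among the values of named genes over these alternatives, 5343 kept direction and side of the threshold, 363 were no longer past it, 44 newly passed and 0 reversed. Genes whose signal was not above background in a group have only a bound.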

Other observations

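Several gene families without a list of their own were counted by symbol after their values were seen, so the counts are descriptions. Some members, such as DUSP4, DUSP10 and PSMB9, also stand in the lists above. Mitochondrial ribosomal proteins, which translate the messages of the mitochondrial genome, were called higher in 29 of 76 tested and lower in 1, with a median of 0.22, against 12.1% higher among all genes. With an array left out 20 to 27 were higher and 1 to 2 lower. With median scaling 4 were higher and 3 lower, with a median of 0.12. Proteasome subunits were higher in 11 of 33 and lower in 0 (median 0.21, with 2 higher under median scaling and 5 to 10 with an array left out). Subunits of the V-type ATPase, which acidifies lysosomes, were higher in 7 of 18 and lower in 2 (1 and 2 with median scaling, and 4 to 7 higher with an array left out). Cytosolic ribosomal proteins were higher in 7 of 65, a smaller share (10.8%) than among all genes, and lower in 1, with 2 higher under median scaling and 3 to 5 with an array left out.

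Connexins, which form gap junctions, fell in 3 of 7 tested and rose in 1, GJA5 (0.66, detected on 1 control and 2 siRNA arrays), and 0 to 1 were higher with an array left out and 0 with median scaling. GJB6 was at 9.20, 9.21 and 9.17 on the non-targeting arrays and at 6.99, 7.35 and 6.78 under STAT3 siRNA (-2.15 ± 0.12), and GJB2, its partner in keratinocyte channels, at 11.79, 12.09 and 11.90 against 10.28, 10.46 and 10.19 (-1.62 ± 0.09). Pregnancy-specific glycoproteins, placental members of the immunoglobulin family, rose in 4 of 4 tested (3 to 4 with an array left out). PSG4 was at 5.59, 4.94 and 5.86 against 6.92, 6.86 and 6.94 (1.44 ± 0.20, on 2 of 3 probes), and PSG9, undetected on all 3 control arrays, was at least 1.59-fold higher. The genes of this family are near-identical, and a probe may read several of them. MHC class II genes fell in 3 of 8 and rose in 0, and dual-specificity phosphatases rose in 6 of 18 and fell in 0 (2 and 0 with median scaling).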
